A study of Mus musculus with 5 samples.

Results

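The metallothionein and zinc transporter genes are 9 genes of cellular zinc handling. They were chosen by name, with earlier results of these arrays known, and followed through all their probes on 5 arrays of mouse whole colon. The set held the metallothioneins Mt1, Mt2 and Mt3, the zinc importers Slc39a14, Slc39a4, Slc39a8 and Slc39a10, the zinc exporter Slc30a1 and the zinc-sensing transcription factor Mtf1. The array held 14 probes for the 9 genes, of 56605 probes in all. All 14 probes passed the filter on dim signal, and all were well above background on all 5 arrays, so that the 9 genes stood among 32917 features tested, each a named gene or a probe without a gene name. Single-colour arrays were hybridised with RNA of whole colon of young adult wild-type mice of strain C57BL/B6. The Control group held 2 mice, which the study calls untreated. The NT-3N group held 3 mice, killed 3 hr after an intravenous injection of NT-3N, an IL-11 receptor agonist made by changing the linker of human IL-11. The sources state the injected amount in milligrams in one place and in micrograms in another. No mock injection is described for Control, so that the injection and the agonist cannot be told apart.

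Metallothioneins are small cysteine-rich proteins that bind zinc, copper and cadmium and buffer the free zinc of the cell. Their genes are switched on by metals through Mtf1, a transcription factor that senses zinc, and in liver also by glucocorticoids and by cytokines of the IL-6 family, which share with IL-11 the receptor subunit gp130. The Slc39 (ZIP) carriers bring zinc into the cytoplasm and the Slc30 (ZnT) carriers take it out or into vesicles. Slc30a1 is, like Mt1 and Mt2, a known target of Mtf1. The comparison asked which of these genes differ in the colon 3 hr after the agonist.

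Promoters are shown for Mt2, Slc30a1 and Mt1, the members with the smallest p in the comparison. The sequences are the 250 bases before each RefSeq gene start, on the gene's strand in build GRCm38.p6. RefSeq promoters were found for 7 of the 9 members, with 9 starts in all. Capitals mark matches on either strand to the metal response element core bound by Mtf1, in its forms TGCACNC and TGCGCNC. The windows lie at chr8:94172368-94172617 for Mt2 and chr8:94178839-94179088 for Mt1, both on the plus strand, and at chr1:191906531-191906780, also on the plus strand, for Slc30a1.
Mt2: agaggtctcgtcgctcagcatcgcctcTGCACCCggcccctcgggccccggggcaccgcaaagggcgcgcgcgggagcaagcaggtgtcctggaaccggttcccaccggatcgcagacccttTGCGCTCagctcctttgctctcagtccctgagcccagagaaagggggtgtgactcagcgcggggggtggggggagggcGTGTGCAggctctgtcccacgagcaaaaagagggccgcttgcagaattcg
Mt1: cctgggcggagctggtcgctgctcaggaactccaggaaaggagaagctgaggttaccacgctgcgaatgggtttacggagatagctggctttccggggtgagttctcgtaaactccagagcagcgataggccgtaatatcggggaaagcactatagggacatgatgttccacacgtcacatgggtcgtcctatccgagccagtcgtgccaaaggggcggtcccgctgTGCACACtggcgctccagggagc
Slc30a1: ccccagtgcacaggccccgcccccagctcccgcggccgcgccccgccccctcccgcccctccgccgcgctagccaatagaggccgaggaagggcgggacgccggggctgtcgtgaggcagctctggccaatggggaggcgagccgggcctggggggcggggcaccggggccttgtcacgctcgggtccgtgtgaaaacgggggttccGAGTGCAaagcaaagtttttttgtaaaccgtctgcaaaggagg

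The Mt2 window held 3 such matches, which did not overlap each other, from base -223 to base -217, from base -128 to base -122 and from base -50 to base -44 before the start. A count of 3 or more was present in 1.26% of all 32851 RefSeq promoter windows of this length. Mt1 held 1 match, from base -23 to base -17, and Slc30a1 held 1, from base -43 to base -37. Only the 250 bases before each annotated start were searched, so cores after a start or further upstream are not counted. At least 1 match was present in 21.4% of all windows. Of the other members' windows, 1 of the starts of Slc39a8 held a match, and the windows of Mt3, Slc39a10 and Mtf1 held none of these letters. The STAT element TTCNNNGAA, also searched on both strands, was found at 1 of the starts of Slc39a10, from base -82 to base -74, and in 7.02% of all windows. On chromosome 8 the start of Mt1 lies 6471 bases after that of Mt2, which lies 20011 bases after that of Mt3.

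Some arrays stood apart in transcripts of exocrine pancreas. Cpa1, which encodes a pancreatic carboxypeptidase, had log2 signals of 11.67 in Control replicate 1 and 8.14 in NT-3N replicate 1, and between 4.77 and 5.29 on the other arrays. Ctrb1 and Pnlip showed the same order. Of the 5 markers of exocrine pancreas 4 were lower and 1 higher in NT-3N, 0 were called by limma and 3 lower by the local-pooled-error test. Cela1 and Prss1 did not follow this order, and the summed signal of the list was between 29000 and 55400 in Control and between 33400 and 47100 in NT-3N. Markers of smooth muscle were lower in NT-3N for all 5 genes, 0 of them called by limma, with a summed signal between 417000 and 435000 in Control and between 312000 and 392000 in NT-3N. The part of smooth muscle in the member values was not tested. Over the 5 arrays no spot was saturated, between 70.6% and 72.9% of probes were well above background, and the median processed signal lay between 92.3 and 115.8.

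No member passed an adjusted p of 0.05 in limma, where 0.143% of all features did, 0.125% higher and 0.0182% lower. Mt2 and Mt1 signals were higher and Slc30a1 signals lower on every NT-3N array than on both Control arrays. Slc39a10 signals were also higher on every NT-3N array, and those of Mt3 and Mtf1 lower. Slc39a14, Slc39a4 and Slc39a8 overlapped between the groups. At an unadjusted p of 0.05 limma gave 3 members higher, which were Mt1, Mt2 and Slc39a10, and 2 lower, Slc30a1 and Mt3. The share of all features at this threshold was 4.95% higher and 4.67% lower, 9.62% in all. The arrays of the groups did not overlap for 6 of the 9 members, 3 higher and 3 lower, against 28.4% of all features, 13.5% higher and 14.8% lower. The members were chosen with results of these arrays known, so these counts carry no test. In simulated data with variances drawn from the limma fit to these arrays, limma called 29.2% of 2-fold and 69.6% of 4-fold changes. All values are log2 signals after quantile normalization unless another scale is named. Fold changes and adjusted p-values come from limma fitted over all features, with each gene represented by its brightest probe.

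**Figure D1:**
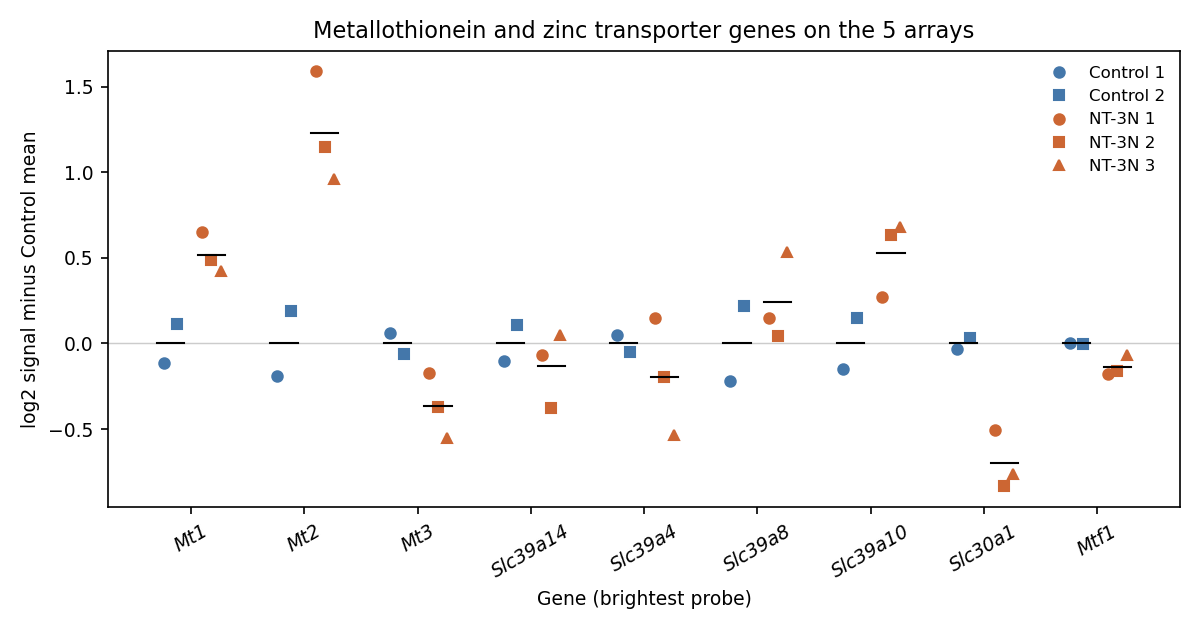
Log2 signal of each member on the 5 arrays, minus its mean over the Control arrays (y axis), by gene (x axis). Blue symbols are Control and orange symbols NT-3N mice, and black bars are group means. The NT-3N mean of Mt2 lies 1.23 above and that of Slc30a1 0.70 below its Control mean, without overlap of the groups.

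Mt2, one of the metal- and stress-inducible metallothioneins, showed the largest difference of the members. Its log2 signal was 14.27 and 14.65 on the Control arrays and 16.04, 15.60 and 15.42 on the NT-3N arrays. All 3 NT-3N arrays lay above both Control arrays, with NT-3N replicate 1 highest and Control replicate 1 lowest. Before scaling between arrays, its processed signal was 17574 and 26545 in Control and between 46805 and 60130.0 in NT-3N. The means were 14.46 ± 0.27 (SD, n = 2) and 15.69 ± 0.32 (SD, n = 3). The log2 fold change was 1.23 ± 0.20 (SE), or 2.35-fold (limma adjusted p = 0.13, unadjusted p = 0.000705). By this p Mt2 ranked at 178 of all features. The local-pooled-error test, which the study names in its methods, called Mt2 alone among the members (adjusted p = 5.90e-08), and called 1.06% of all features. At an unadjusted p of 0.05 it gave 3 members, Mt1, Mt2 and Slc30a1, against 3.82% of all features. In the simulated data 56.5% of the calls of that test were false. Those data follow limma's variance model, with 200 of 32910 features changed, so this share is not an error rate for Mt2. Array quality weights also gave Mt2 an adjusted p under 0.05 in limma (0.040), in a fit that called 0.608% of all features. Without each array in turn the log2 fold change of Mt2 lay between 1.04 and 1.43.

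Mt1, the neighbouring gene, encodes a metallothionein with the same known inducers. Its log2 signal was 15.85 and 16.07 in Control and 16.61, 16.44 and 16.38 in NT-3N. As for Mt2, the groups did not overlap, and NT-3N replicate 1 was highest and Control replicate 1 lowest. The log2 fold change was 0.52 ± 0.10 (SE), or 1.43-fold (limma adjusted p = 0.19). Its dimmer probe had 8.55 and 7.94 in Control and between 8.45 and 8.72 in NT-3N, so that the groups overlapped on it. With every probe fitted on its own, the log2 fold change of this probe was 0.38 and its limma adjusted p 0.62. The transcripts of Mt1 and Mt2 are alike in sequence, and how far a probe of one binds RNA of the other was not tested.

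Mt3, a metallothionein known mainly from neurons and glia, had a log2 signal of 10.09 and 9.97 in Control and of 9.86, 9.66 and 9.48 in NT-3N. The direction was opposite to that of Mt1 and Mt2, again without overlap. The log2 difference was -0.37 ± 0.14 (SE; limma adjusted p = 0.48). All 8 markers of enteric neurons and glia were well above background, with 6 lower and 2 higher in NT-3N. Their summed signal was between 36400 and 38400 in Control and between 31000 and 36500 in NT-3N. Gfap was the 1 marker of the 8 called by limma, and it was higher. The part of these cells in the Mt3 values was not tested. In whole tissue, fewer cells of a type and less RNA per cell cannot be told apart.

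Slc30a1 encodes ZnT1, the exporter of zinc at the plasma membrane. Its log2 signal was 10.70 and 10.76 in Control and 10.23, 9.90 and 9.97 in NT-3N. Every NT-3N array lay below both Control arrays, which differed by less than the NT-3N arrays did. The log2 fold change was -0.70 ± 0.13 (SE), a 1.62-fold lower signal (limma adjusted p = 0.16). Leaving out each array in turn gave values from -0.79 to -0.63. Array quality weights gave Slc30a1 an adjusted p under 0.05 in limma (0.035), in the fit that called 0.608% of all features. The difference of Slc30a1 was opposite in sign to those of Mt1 and Mt2. All 3 windows printed above held a metal response element core, as did 21.4% of all windows. A part of Mtf1 in these differences was not tested.

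Slc39a10 encodes ZIP10, an importer of zinc. It was measured by 2 dim probes that gave the same direction. On the brighter one the log2 signal was 6.61 and 6.91 in Control and 7.03, 7.39 and 7.44 in NT-3N. The other had 5.61 and 5.49 in Control and 6.17, 6.11 and 6.30 in NT-3N. The groups did not overlap on either probe. The brighter probe differed by 0.53 ± 0.19 on the log2 scale (SE; limma adjusted p = 0.47). The other differed by 0.64 ± 0.17 (SE; limma adjusted p = 0.32 where every probe was fitted).

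Slc39a14 encodes ZIP14, an importer of zinc, iron and manganese that is known in liver as a gene induced by IL-6. Its log2 signal was 10.43 and 10.64 in Control and 10.47, 10.16 and 10.59 in NT-3N. The NT-3N values lay on both sides of the lower Control value, and NT-3N replicate 2 was lowest. The log2 fold change of -0.13 had a 95% interval from -0.50 to 0.24 (limma adjusted p = 0.81).

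Slc39a4, the ZIP4 carrier through which enterocytes absorb zinc from the diet, had log2 signals of 15.59 and 15.49 in Control and 15.69, 15.35 and 15.01 in NT-3N. NT-3N held both the highest and the lowest array. The log2 fold change was -0.19, with a 95% interval from -0.64 to 0.25 (limma adjusted p = 0.77). All 9 markers of colonic epithelium were well above background. Their summed signal was between 947000 and 952000 in Control and between 856000 and 992000 in NT-3N, highest in NT-3N replicate 1. Car1, Krt20 and Vil1 were highest on that array, and the other markers on other arrays. Car1 had a log2 signal of 17.77 in NT-3N replicate 1 and 16.50 in NT-3N replicate 3. Muc2 was lowest in NT-3N replicate 1. The part of epithelium in the Slc39a4 values was not tested. Slc39a8, the ZIP8 importer of zinc and manganese, had 9.95 and 10.39 in Control and 10.32, 10.22 and 10.71 in NT-3N. The difference was 0.24 on the log2 scale, with a 95% interval from -0.23 to 0.71 (limma adjusted p = 0.73), and its second probe gave 0.18. Control replicate 1 was the lowest array on both probes.

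Mtf1 had 3 probes that did not share a direction. The brightest had 11.97 and 11.96 in Control and 11.78, 11.80 and 11.90 in NT-3N, without overlap. This was a small difference, -0.14 on the log2 scale (limma adjusted p = 0.65). The other probes overlapped between the groups and had log2 fold changes of -0.18 and 0.26 where every probe was fitted. The mean of the 3 probes differed by -0.019.

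With every probe fitted on its own, limma called 0 of the 14 member probes, where it called 0.168% of all probes. At an unadjusted p of 0.05 it gave 6 of the 14, where it gave 9.54% of all probes. With Control replicate 1 and NT-3N replicate 1, the arrays with pancreatic transcripts, both left out, a fit with 1 Control and 2 NT-3N arrays, limma called Mt2 at a log2 fold change of 0.85 (adjusted p = 0.030) and Slc30a1 at -0.83 (adjusted p = 0.045). It called 1.42% of all features, 303 higher and 148 lower of 31849. This fit takes the spread of NT-3N for the lone Control array. Its log2 fold changes for Mt1, Mt3 and Slc39a10 were 0.33, -0.40 and 0.52.

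**Figure D2:**
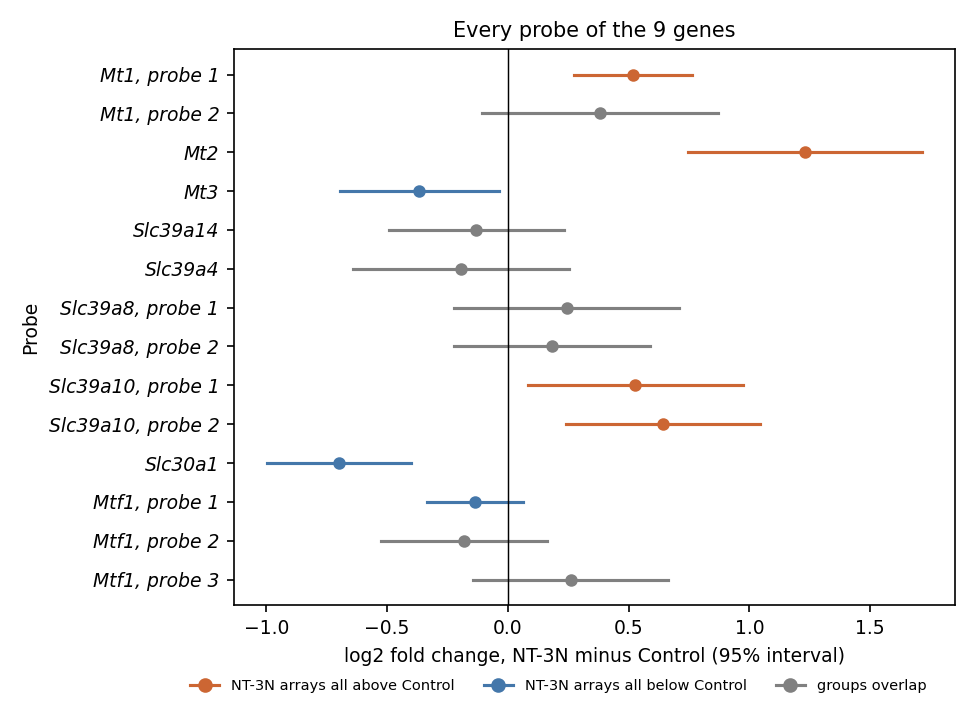
Log2 fold change of NT-3N minus Control (x axis) with its 95% interval for each of the 14 probes of the 9 genes (y axis), from limma fitted on every probe. Orange marks probes whose NT-3N arrays all lay above Control, blue those all below and grey those that overlapped; Mt2 has the largest value, 1.23, and the probes of Mtf1 lie on both sides of 0.

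The other genes of these families were followed as a list of 20, which held Mt4 and the remaining Slc39 and Slc30 genes. Of these, 17 were tested, and Slc39a12, Slc30a3 and Slc30a8 did not pass the filter. limma called 0 of the 17 in either direction, and the local-pooled-error test 0. At an unadjusted p of 0.05 limma gave 1 higher and 1 lower. The median log2 fold change was -0.0089, beside -0.019 over all features. Slc39a1, the ZIP1 importer, had 13.87 and 13.93 in Control and between 14.12 and 14.21 in NT-3N, a log2 difference of 0.26 (limma adjusted p = 0.34). Slc39a13 had a log2 fold change of -0.33, Slc30a4 of -0.21 and Slc39a2 of -0.46, and all 3 lay lower on every NT-3N array, with limma adjusted p between 0.48 and 0.64. Slc30a10, an exporter of manganese, varied most among the mice, from 8.82 to 9.74 in Control and from 7.98 to 9.55 in NT-3N.

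**Figure D3:**
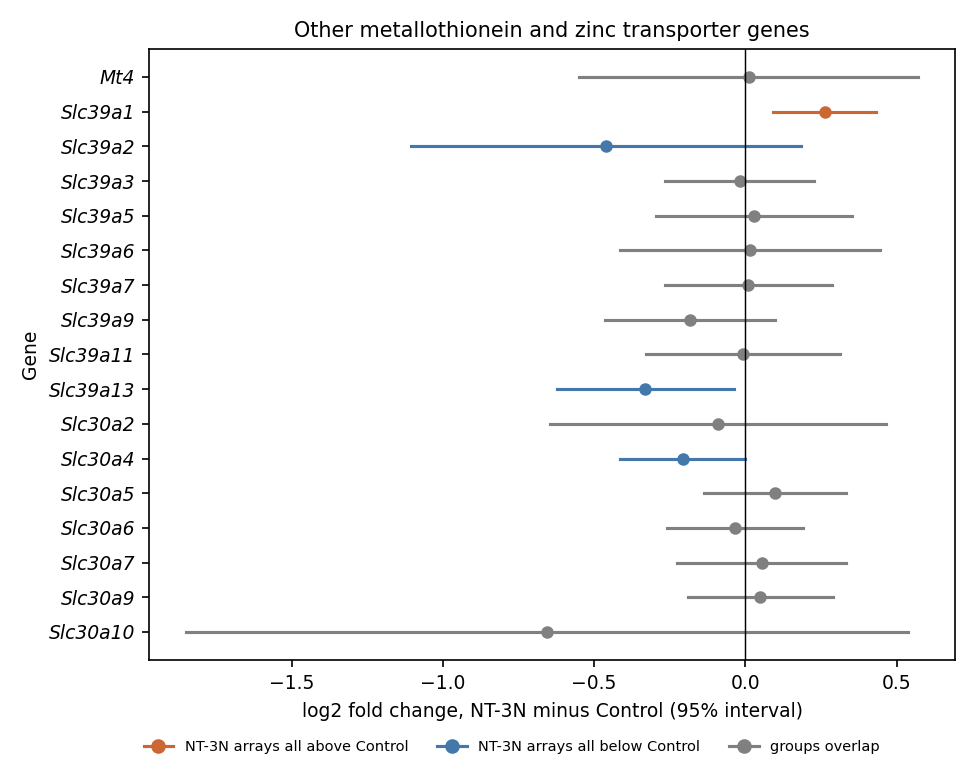
Log2 fold change of NT-3N minus Control (x axis) with its 95% interval for the 17 other metallothionein and zinc transporter genes tested (y axis). Orange marks genes whose NT-3N arrays all lay above Control, blue those all below and grey those that overlapped; Slc39a1 is the 1 gene all above, with 0.26.

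Genes of other known inducers of metallothioneins were set beside the members. Of 11 genes of oxidative stress and glutathione synthesis, limma called 0, with 1 higher and 1 lower at an unadjusted p of 0.05, and the local-pooled-error test called 0. Their median log2 fold change was 0.063. The 4 with the smallest p were Hmox1, which encodes heme oxygenase, with a log2 fold change of 0.57, Osgin1 with -0.35, Keap1 with -0.26 and Slc7a11 with 0.36, and their limma adjusted p lay between 0.24 and 0.77. Of 10 glucocorticoid response genes limma likewise called 0, with 1 higher and 1 lower at an unadjusted p of 0.05. The local-pooled-error test called 1 lower, Zbtb16, a transcription factor gene whose arrays overlapped between the groups. At an unadjusted p of 0.05 that test gave 5 of these 10 and 0 of the 11 stress genes, against 3.82% of all features. The median log2 fold change of the glucocorticoid genes was -0.013. The log2 fold change was 0.55 for Dusp1, -0.46 for Tsc22d3, -0.38 for Sgk1 and 0.23 for Klf9, with limma adjusted p between 0.29 and 0.56. Of 14 tested genes of the gp130-STAT3 response, a list made with earlier results of these arrays known, limma called 8, all higher. Among them, Socs3, a feedback inhibitor of this pathway, had 10.63 and 10.11 in Control and 12.88, 13.21 and 13.14 in NT-3N, 2.71 higher on the log2 scale (limma adjusted p = 0.0087).

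The genes whose pattern over the 5 arrays was closest to that of Mt2 were Reg3g, which encodes an antimicrobial lectin, Lcn2, which encodes the siderophore-binding lipocalin 2, and Nupr1, which encodes a stress-inducible nuclear protein. They were the closest of 16725 genes by the root mean square difference between log2 deviations from each gene's own mean, which was 0.086, 0.12 and 0.14. The deviations of Mt2 itself had a root mean square of 0.65. The log2 signal of Reg3g was 12.18 and 12.79 in Control and 14.05, 13.73 and 13.50 in NT-3N. It was 1.27 higher in NT-3N on the log2 scale (limma adjusted p = 0.15). Lcn2 and Nupr1 were 1.03 and 1.20 higher, with limma adjusted p of 0.27 and 0.083. For Slc39a14, whose deviations had a root mean square of only 0.17, the closest were H2ac12, Lctl and Abraxas1, with differences between 0.035 and 0.042. Likeness over 5 arrays is a description and carries no test.

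**Figure D4:**
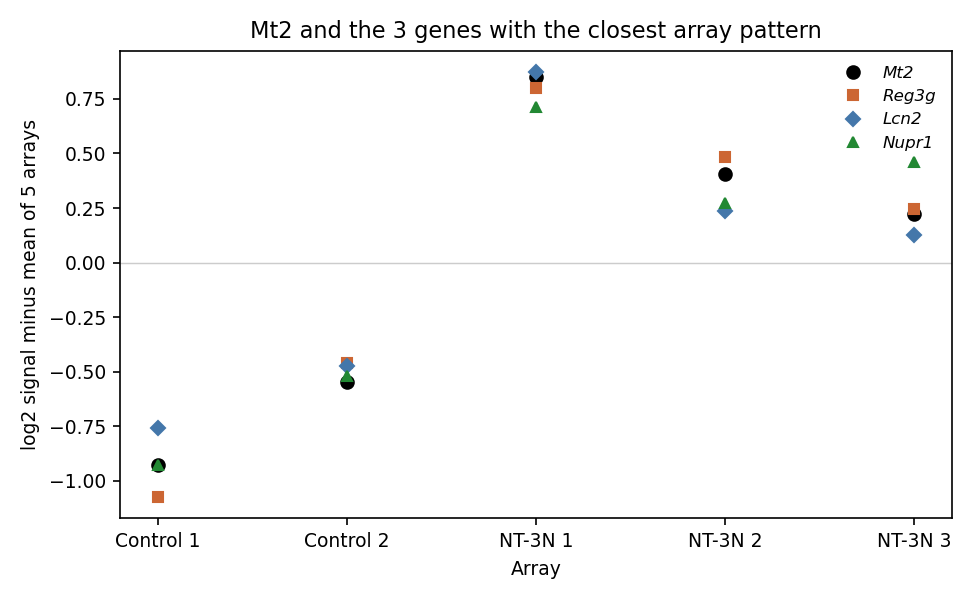
Log2 signal minus the mean of the 5 arrays (y axis) of Mt2 and of Reg3g, Lcn2 and Nupr1 on each array (x axis). Points are single arrays; for all 4 genes both Control arrays lie below 0, Control replicate 1 is lowest and NT-3N replicate 1 is highest.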

How the data were processed

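RNA of whole colon from 2 Control and 3 NT-3N mice was measured on 5 single-colour SurePrint G3 arrays. The authors extracted the spots with Agilent Feature Extraction 11.0.1.1, and the deposited scanner files hold the background-subtracted and detrended intensity of each spot, not scaled between arrays. The authors also deposited log2 values of 37380 probes, which correlated with quantile-normalized processed signal at 0.9999 or more on each array and were used as an alternative only.

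Array controls and outlier spots were removed. The processed signal was log2-transformed, averaged per probe and quantile-normalized. A probe was kept if well above background on at least 2 arrays. Accessions were matched without version to RefSeq symbols of GRCm38.p6, which named 32994 of 56605 probes. The header of the array design names another build, so the coordinates given are those of RefSeq promoters. The brightest probe stood for a gene. Groups were compared by limma 3.58.1 in R 4.3.3 (two-sided, prior variance trended on intensity), and p-values were adjusted by Benjamini-Hochberg over 32917 features. An adjusted p under 0.05 was a call. limma stands in for the local-pooled-error test of the study's methods, which was run as an alternative. An exact permutation test of 2 against 3 arrays cannot go below p = 0.1. Both tests were tested on simulated data of the same design (5 runs of 32910 features, 200 of them changed). Variances were drawn from the prior fitted by limma, with independent normal noise, so the simulated data follow the model of limma. Arrays that stand apart, as those with pancreatic transcripts do, were not simulated.

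All 9 members are named. From each list of other zinc, stress and glucocorticoid genes, called genes or else the 4 with the smallest p are given, with Socs3 and the 3 genes most like Mt2 and Slc39a14 over the arrays. Slc30a10, Zbtb16 as called by the local-pooled-error test, and the pancreas and neural markers were chosen after their values were seen. Members and lists were chosen with earlier results of these data known. Alternatives covered scaling, background, filter, variance model, weights, replicate block, left-out arrays, several probes and the test. Precision is limited by how few arrays there are. The limma p-values draw on the spread of a gene between these mice and on that of features of like intensity. Those of the local-pooled-error test rest on the pooled spread of features of like intensity, not on that of the gene itself.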

Additional observations from a re-analysis of the deposited data

How the results depend on the processing

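The 9 members were followed through 19 other settings, of which 1 was added after seeing the data and left out the arrays with exocrine pancreas transcripts. None of the 9 changed sign in any of these; for the 6 members whose groups do not overlap, leaving out an array could not change it. The count of 0 members called higher became 1 (Mt2) with array quality weights, the local-pooled-error test and the added setting, and the count of 0 called lower became 1 (Slc30a1) with array quality weights and the added setting. Array quality weights and the added setting also raised the calls over all features, to 140 and 303 higher and 60 and 148 lower. Without each NT-3N array in turn both counts stayed at 0. Over all features, limma called 68 higher and 16 lower without NT-3N replicate 1. It called 1 higher and 0 lower without NT-3N replicate 2, and 0 in either direction without NT-3N replicate 3. With so few features called, the counts without NT-3N replicate 2 or 3 say little about the members. The 3 members higher at an unadjusted p under 0.05 became 2 with normexp background correction and the local-pooled-error test, where Slc39a10 missed the threshold. Slc39a10 also missed it without NT-3N replicate 2 or 3. The 2 lower became 1 (Slc30a1) with normexp background correction, no intensity trend and the local-pooled-error test, and ranged from 1 to 3 without each array in turn. The count was 1 without NT-3N replicate 2 or 3, where Mt3 missed the threshold, and 3 without NT-3N replicate 1, where Slc39a4 passed it. The share of all features at this threshold moved the same way. It was 6.57% without NT-3N replicate 2, 7.24% without NT-3N replicate 3 and 15.8% without NT-3N replicate 1, against 9.62% in the main fit. The cause was not tested.

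In the labels, mice of equal replicate number share only that number. Over all features their deviations had correlations of 0.13 (replicate 1) and 0.036 (replicate 2). The replicate 1 arrays of both groups held the pancreatic transcripts described above. Correlations over all features do not show a likeness confined to some genes, and a shared handling of these mice was not tested. With the replicate block limma called 0 members higher and 0 lower, but it also called 0 of all features in either direction. At an unadjusted p under 0.05 it gave 3 members higher and 1 lower, where 7.56% of all features passed. The log2 fold change in this fit was 1.37 for Mt2 and -0.67 for Slc30a1. Over all settings, adjusted p ranged from 5.90e-08 to 0.55 for Mt2 and from 0.035 to 0.61 for Slc30a1. Slc39a10 was measured by dim probes, and its log2 fold change was 0.32 with normexp.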
